A study of Mus musculus with 16 samples.

Results

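Retinas of 2 mouse strains kept in high oxygen were compared across all genes, using the 8 hyperoxia libraries of the 16 in the series. The first group was 4 libraries of BALBc mice and the second 4 libraries of C57 mice, all 12 days old and all in 75% oxygen from day 7 after birth. The other 8 libraries, 4 of each strain at the same age in room air (normoxia), entered the same model and served as the reference for what the strains differed in without the oxygen. No group carried a transgene or a deletion according to the labels, which give neither the substrain nor the sex and do not say which strain is the resistant one. Nothing in them says that each library is an animal of its own, and p-values then cover only how much these libraries vary. The question in the series' design is which metabolic differences accompany resistance to oxygen-induced retinopathy.

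In this model, high oxygen given while the retinal vessels are still growing makes capillaries of the central retina regress, and the return to room air leaves the avascular retina short of oxygen. Vascular endothelial growth factor from glia and neurons, and the hypoxia-inducible factors (HIF) that drive it, are turned down while the oxygen lasts. Photoreceptors are the main oxygen consumers of the retina, and Müller glia supply neurons with metabolites and span its whole depth. BALBc mice are albino through a coding mutation of tyrosinase, while C57 mice are pigmented.

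Whole reads were recovered from the steps of the FPKM values (fragments per kilobase of gene length and megafragment of library), and a hyperoxia library held 17433163 to 21873629 reads. The library size implied by the steps was not this read total. Reads over that size were 0.955, 1.15, 1.13 and 1.05 in BALBc replicates 1 to 4. In C57 the ratio was 0.978 to 0.998. The deposited values are thus not scaled to the recovered total, and the scaling used is not given in the sources used here. All 4 C57 libraries carried Xist, the RNA of the inactive X chromosome (61.8 to 105 FPKM), and had Ddx3y, a Y-linked gene, listed at 0. BALBc replicates 1 to 3 carried Xist (120, 34.4 and 45.6 FPKM) and replicate 4 did not (0.109 FPKM), with 20.5 FPKM of Ddx3y in replicate 4 and 1.61 FPKM in replicate 3. BALBc replicates 2 and 3 stood apart from replicates 1 and 4 in rod and pigment epithelium genes: Gnat1, the alpha subunit of rod transducin, read 608, 2575, 2804 and 1095 FPKM in replicates 1 to 4, against 1051 to 1176 FPKM in C57. Lens crystallins separated C57 replicates 3 and 4 from replicates 1 and 2. Over all tested genes the libraries also lay in pairs. Pearson r was 0.978 for C57 replicates 1 and 2, 0.972 for 3 and 4, and 0.938 to 0.950 across these pairs. In BALBc it was 0.978 for replicates 2 and 3, 0.968 for 1 and 4, and 0.937 to 0.955 across. The model takes the 4 libraries of a group as independent, and whether paired libraries share a source was not tested. In normoxia the C57 libraries were split by rod genes, with Gnat1 at 612 and 476 FPKM in replicates 1 and 2 and 2924 and 2223 FPKM in replicates 3 and 4, against 2275 to 2964 FPKM in BALBc. Xist was at 0.0335 FPKM or less in BALBc normoxia replicates 1 and 2 and C57 normoxia replicates 1 to 3, so the sexes were not balanced between the groups. In a principal component analysis of the 8 libraries the component with the most variance, 45%, separated the strains. The cone opsin Opn1sw was present at 73.5 to 169 FPKM in all 8 libraries.

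The strains differed in a large share of the genes. A filter kept 14953 genes, those at 1 FPKM or more in 4 or more of the 16 libraries, and limma called 3380 of them between the strains in hyperoxia (22.6%) at a Benjamini-Hochberg adjusted p under 0.05. Of these, 1769 were higher in BALBc (11.8%) and 1611 lower (10.8%). Most differences were small: 1174 of the called genes differed by less than 0.5 on the log2 scale and 1550 by 0.5 to 1, while 656 (4.39% of tested genes) differed by at least 1 and 158 (1.06%) by at least 2. Log2 differences are given throughout as BALBc minus C57 on log2(FPKM + 0.5), which understates the fold change of genes with a group near or below 0.5 FPKM. The 4 libraries of each strain did not overlap for 3194 genes (21.4%), among them 2598 of the called ones. The median over all tested genes was 0.0079. It moved to -0.14 when values were scaled as TPM (transcript shares of equal total in each library) on the same genes, and the split of the calls then became 917 higher and 2042 lower. It was -0.10 when limma voom was run on the recovered reads (1218 higher and 2073 lower). List medians carry a scaling uncertainty of this size. Counts of list members below are out of those that passed the filter. They are to be read beside the 11.8% higher and 10.8% lower among all tested genes. Without BALBc replicates 2 and 3, which leaves fewer libraries, the calls over all tested genes fell to 889 higher and 1177 lower. List counts without these replicates are to be read beside that fall.

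The same strain contrast in normoxia gave 1358 called genes (9.08%). In both contrasts and in the same direction, 977 genes were called, which is 28.9% of the hyperoxia calls and 71.9% of the normoxia calls, and 0 genes were called in opposite directions. Over all tested genes the 2 log2 differences had a Pearson r of 0.72; they share no library, though they share the reference genome to which both strains were aligned. The test of the difference between the 2 contrasts called 0 genes in limma (0.0%, smallest adjusted p = 0.245) and 0 with limma voom, with 1430 genes at an unadjusted p under 0.05. Genes called in hyperoxia and not in normoxia are therefore not shown to respond differently to oxygen in the 2 strains. This count depended on the weight given to libraries: it was 591 without C57 replicates 3 and 4 and 3473 when limma estimated a weight for each library.

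**Figure D1:**
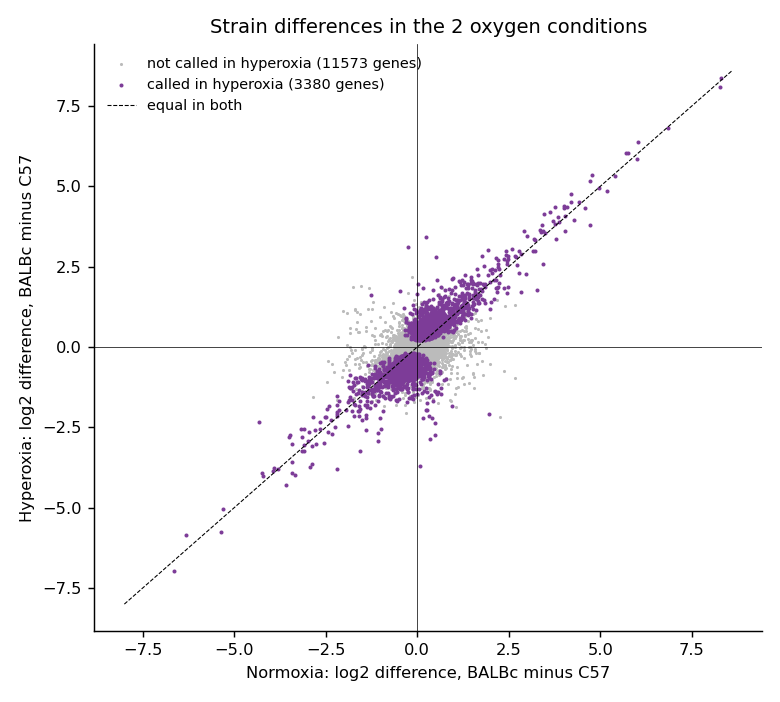
Log2 difference between the strains (BALBc minus C57) in normoxia on the horizontal axis and in hyperoxia on the vertical axis, with 1 point per tested gene; purple points are the 3380 genes called in hyperoxia and the dashed line marks equal differences. Most genes with the largest differences lie near the dashed line, while the smaller calls lie above and below 0 on the vertical axis.

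Several of the largest differences were genes read at almost nothing in 1 strain and without sequence shared with other genes. Ppara (ENSMUSG00000022383, GRCm38 chromosome 15, 85734983 to 85802819), the nuclear receptor that switches on fatty acid oxidation genes, read 0.0376, 0.0140, 0.0752 and 0.0250 FPKM in BALBc replicates 1 to 4 and 6.18, 5.70, 2.97 and 3.99 FPKM in C57. These are 11 reads in all 4 BALBc libraries together against 1365 in C57. The groups lay far apart, with C57 means 124-fold above BALBc (log2 difference -3.23, SE 0.21, limma adjusted p = 3.34e-08). In normoxia Ppara read 0.052 ± 0.024 and 4.54 ± 1.31 FPKM (SD, n = 4 each; log2 difference -3.15), and the difference between the 2 contrasts was -0.08 (adjusted p = 0.96).

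Rec8 (chromosome 14, 55618037 to 55625395), a cohesin subunit known from meiosis, read 0.0819, 0.128, 0.0590 and 0.0815 FPKM in BALBc and 4.54, 3.54, 4.59 and 4.34 FPKM in C57 (log2 difference -3.01, SE 0.14, limma adjusted p = 5.52e-10). Pttg1 (chromosome 11, 43420250 to 43426251), securin, the inhibitor of the protease that opens cohesin rings, read 0.144, 0.268, 0 and 0.191 FPKM against 4.04, 5.20, 4.75 and 5.34 FPKM (-3.04, SE 0.20, adjusted p = 2.32e-08). For both genes every C57 library was above 3 FPKM and every BALBc library below 0.5 FPKM. Ccl27a, a chemokine, was 0.202 ± 0.097 FPKM in BALBc and 9.18 ± 2.22 FPKM in C57 (-3.77, adjusted p = 1.14e-09); 45% of its 50-base words occur in other genes, such as its copy Ccl27b, and its model overlaps Il11ra1 on the opposite strand, so its reads may be split. All 3 were also lower in normoxia, with log2 differences of -2.77 for Rec8, -3.08 for Pttg1 and -3.92 for Ccl27a.

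Optc was the exception among the 12 largest lower genes. Optc (ENSMUSG00000010311, chromosome 1, 133897199 to 133907999) encodes opticin, a glycoprotein of the vitreous that in the eye is secreted mainly by the ciliary body. It read 0.859, 3.6, 3.41 and 1.26 FPKM in BALBc hyperoxia and 30.8, 48.0, 28.3 and 25.4 FPKM in C57 hyperoxia (log2 difference -3.71, SE 0.64, limma adjusted p = 0.000972). In normoxia the strains overlapped, at 14.6 ± 13.0 FPKM in BALBc and 10.8 ± 7.68 FPKM in C57 (0.07, adjusted p = 0.964). The difference between the 2 contrasts was -3.78, with an adjusted p of 0.25, so it did not pass. Fbln1, the matrix protein fibulin 1, showed the same arrangement: 0.198, 0.995, 0.872 and 0.208 FPKM in BALBc against 5.98, 7.97, 5.35 and 5.89 FPKM in C57 (-2.75, adjusted p = 0.00559), with 4.93 ± 5.08 and 2.52 ± 1.99 FPKM in normoxia (difference of contrasts -3.22, adjusted p = 0.28). Cryaa, a crystallin that fills lens fibres, read 2.61, 291, 37.8 and 13 FPKM in BALBc hyperoxia and 0.089, 1.16, 1220 and 107 FPKM in C57 hyperoxia. The 2 C57 libraries almost without Cryaa were as high in Optc and Fbln1 as the other 2. Within BALBc the replicates had the same order for Cryaa, Optc and Fbln1, highest in replicate 2 and lowest in replicate 1. With a lens covariate the log2 differences were -3.72 for Optc and -2.75 for Fbln1. The part of other tissue from the front of the eye was not tested.

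Among the genes higher in BALBc, Rtkn2 (chromosome 10, 67979570 to 68059740), rhotekin 2, read 9.11, 12.3, 11 and 13.8 FPKM in BALBc and 0.369, 0.418, 0.522 and 0.754 FPKM in C57 (log2 difference 3.57, SE 0.13, limma adjusted p = 3.76e-11). Dnah17, an axonemal dynein heavy chain, was 5.34 ± 0.892 against 0.238 ± 0.0921 FPKM (2.98, adjusted p = 1.72e-09). Armh4 was 5.02 FPKM in BALBc replicate 1 and 11.7 to 12.4 FPKM in the other 3 replicates, against 0.570 to 1.09 FPKM in C57 (2.87, adjusted p = 1.85e-07). In all 3 genes the lowest BALBc library was above the highest C57 library, and the normoxia differences were 3.37, 3.16 and 2.44. Rtkn2, Dnah17 and Sgsh have models that overlap genes on the opposite strand, and whether the counting used strand is not given in the sources used here.

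The group also held metabolic enzymes. Sgsh (ENSMUSG00000005043, chromosome 11, 119343425 to 119355536), the lysosomal sulfamidase that degrades heparan sulfate, read 10.2, 12.4, 12.5 and 13.2 FPKM in BALBc and 1.33, 1.94, 1.73 and 2.52 FPKM in C57, a 6.43-fold difference of means (log2 difference 2.42, SE 0.14, adjusted p = 8.66e-09). Gulo (chromosome 14, 65986786 to 66009207), the enzyme of the last step of vitamin C synthesis, read 22.2, 25.4, 26.2 and 26.7 FPKM against 4.55, 3.31, 8.26 and 7.95 FPKM, 4.18-fold higher in BALBc (2.06, SE 0.23, adjusted p = 1.51e-05). Neither pair of groups overlapped. Hist1h1c, a linker histone, was 135 ± 29.6 against 28.7 ± 9.53 FPKM (2.24, adjusted p = 0.000234). Cerkl, a gene of inherited retinal dystrophy, was 36.4 ± 6.17 against 6.44 ± 1.31 FPKM (2.41, adjusted p = 2.85e-09), and Itga4, an integrin subunit, 26.1 ± 5.59 against 6.12 ± 1.22 FPKM (2.0, adjusted p = 2.32e-06). The models of Cerkl and Itga4 overlap on opposite strands, so that part of their reads cannot be told apart. In normoxia the log2 differences of these genes were 2.23 for Sgsh, 1.5 for Gulo, 1.32 for Hist1h1c, 1.63 for Cerkl and 1.47 for Itga4.

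**Figure D2:**
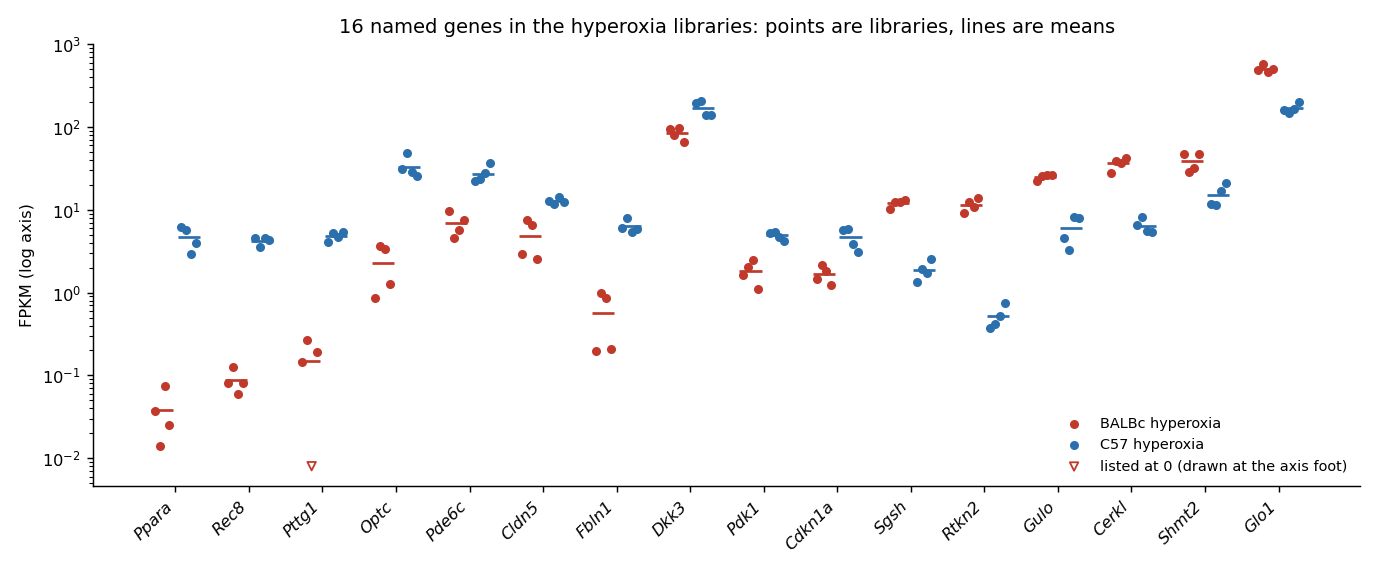
FPKM on a log axis of 16 named genes in the 4 BALBc (red) and 4 C57 (blue) hyperoxia libraries; points are libraries, short lines are group means, and the open triangle marks the library of Pttg1 listed at 0. The red and blue points of each gene occupy separate ranges, with Ppara, Rec8 and Pttg1 below 0.5 FPKM in every BALBc library.

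Many of the remaining large differences, though not most, were in genes that have near-identical copies elsewhere in the genome. Such copies are mostly retrocopies, made when a messenger RNA is reverse transcribed and inserted at another site. A read that fits 2 places equally well, or that carries a strain's own base at a site where gene and copy differ, can be counted at the wrong place. Of the tested genes, 662 (4.43%) have at least 50% of their 50-base words in the transcripts of other genes. The share was 0.852% among called genes with a log2 difference below 0.5, 3.10% between 0.5 and 1, 13.1% between 1 and 2, and 41.1% (65 of 158) at 2 or more. Of the 12 largest lower genes, 6 encode ribosomal proteins: Rpl29, Rpl26, Rps2, Rps18, Rpl21 and Rpl35a.

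These 3 pairs are shown because gene and copy exchanged places between the strains although their coding sequences differ at few bases. Over the coding sequence Rpl26 and Gm15772 differ at 2 of 435 bases, Atp6v0c and Atp6v0c-ps2 at 1 of 465, and Rps18 and Gm11361 at 3 of 456. Each line gives 120 bases of coding sequence, 5′ to 3′ along the gene's own strand, from the GENCODE mouse transcripts (release 21, GRCm38), with capitals at the bases where gene and copy differ. The stretches are bases 172 to 291 for Rpl26, 51 to 170 for Atp6v0c and 111 to 230 for Rps18, counted from the start codon. The copies' stretches lie at chr5:3236602-3236721 (Gm15772, plus strand), chr6:37806136-37806255 (Atp6v0c-ps2, plus strand) and chr13:28257746-28257865 (Gm11361, plus strand).
Rpl26: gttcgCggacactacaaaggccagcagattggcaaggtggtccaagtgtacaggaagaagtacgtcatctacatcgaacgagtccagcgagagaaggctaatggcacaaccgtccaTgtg
Gm15772: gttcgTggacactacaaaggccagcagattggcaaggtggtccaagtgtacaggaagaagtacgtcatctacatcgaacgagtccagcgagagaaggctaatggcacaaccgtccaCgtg
Atp6v0c: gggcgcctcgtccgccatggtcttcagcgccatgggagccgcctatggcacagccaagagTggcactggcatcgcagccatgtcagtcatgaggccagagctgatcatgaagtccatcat
Atp6v0c-ps2: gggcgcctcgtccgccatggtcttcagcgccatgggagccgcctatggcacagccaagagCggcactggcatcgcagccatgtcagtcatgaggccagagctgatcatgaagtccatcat
Rps18: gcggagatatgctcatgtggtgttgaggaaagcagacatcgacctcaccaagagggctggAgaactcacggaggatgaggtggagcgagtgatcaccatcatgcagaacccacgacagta
Gm11361: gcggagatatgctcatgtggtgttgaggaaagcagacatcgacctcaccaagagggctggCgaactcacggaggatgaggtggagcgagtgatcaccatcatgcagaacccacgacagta

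Rpl26 (chromosome 11, 68901583 to 68906989), a protein of the large ribosomal subunit, read 2.03, 2.01, 2.80 and 1.96 FPKM in BALBc and 132, 135, 177 and 184 FPKM in C57 (log2 difference -5.86, SE 0.23, limma adjusted p = 4.70e-11). Its copy Gm15772 (chromosome 5, 3236431 to 3236868) went the other way, from 958 ± 207 FPKM in BALBc to 23.6 ± 7.48 FPKM in C57. In RPM, recovered reads scaled to the same total in every library and not divided by gene length, Rpl26 with its 12 copies came to 393 ± 59 in BALBc and 242 ± 42.3 in C57. The very low reading of Rpl26 in BALBc thus went with a sum over gene and copies that was not lower.

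For other families the sum was closer between the strains. Rpl30 was 19.2 against 163 RPM for the gene and 198 ± 25.9 against 198 ± 23.7 with its copies. Atp6v0c, the membrane ring subunit of the proton pump of lysosomes and synaptic vesicles, read 4.47, 4.68, 4.64 and 3.89 FPKM in BALBc and 32.7, 30.9, 30.5 and 31.4 FPKM in C57 (log2 difference -2.70, adjusted p = 8.53e-11). Its copy Atp6v0c-ps2 was 254 ± 55.0 against 1.73 ± 0.454 FPKM, and the sum was 124 ± 17.5 against 108 ± 2.69 RPM. Eif3j1, a translation initiation factor subunit, and its copies, Eif3j2 (8.54-fold higher in BALBc in FPKM) among them, summed to 46.9 ± 1.80 against 45 ± 3.01 RPM. The glycolytic enzyme Eno1 was 0.83 lower on the log2 scale in BALBc (adjusted p = 0.000442) while its copy Eno1b was 227 ± 18.4 against 19.4 ± 7.89 FPKM (3.6, adjusted p = 1.41e-08), and the sum was 1767 ± 205 against 2107 ± 266 RPM. mt-Nd3, a complex I subunit of the mitochondrial genome, was 5.79 ± 2.19 against 57.5 ± 15.7 FPKM, and its nuclear copy Gm28438 was 96.8 ± 41.2 against 9.17 ± 3.98 FPKM.

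In another set the sum stayed lower in BALBc. Rps18 read 6.97, 6.16, 7.67 and 7.51 FPKM against 112, 107, 111 and 108 FPKM (log2 difference -3.86, adjusted p = 4.49e-11), and Gm11361 was 149 ± 20.5 against 3.69 ± 0.583 FPKM; together with its other copies Rps18 summed to 111 ± 9.84 RPM in BALBc and 275 ± 6.94 in C57. Rpl29, the gene with the largest log2 difference of all protein-coding genes named here (-6.97, SE 0.26, adjusted p = 3.00e-11), was 0.729 ± 0.394 against 149 ± 20 FPKM and summed to 55.8 ± 6.13 against 191 ± 23.6 RPM. Rnps1, a splicing factor, was 21.7 ± 0.775 against 75.7 ± 2.63 FPKM, and its sum with Gm9825 was 145 ± 14.4 against 394 ± 9.90. Glo1 with its copy is described below. These families were picked after their values were seen, and their sums carry no test. Reads that fit several places may have been dropped before counting, so a lower sum can also be a loss of reads; this was not tested.

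Each tested protein-coding gene was paired with the gene that shares most words with it. In 372 pairs that partner was a tested pseudogene sharing at least 1% of the gene's words. Gene and copy were both uncalled in 222 of these. The gene was lower and the copy higher in BALBc in 27 pairs, and the gene was higher and the copy lower in 1. Both were higher in 18 pairs and both lower in 1. The copy alone was higher in 48 pairs and lower in 6, and the gene alone was higher in 39 and lower in 10. When genes with any shared word were left out, 1845 of 8644 genes were called, 812 higher and 1033 lower. AK157302 (27.5 against 0.37 RPM, log2 difference 4.51), Hmga1b (27.0 ± 1.54 against 6.39 ± 0.892 FPKM, 2.0, with its parent Hmga1 lower, at 19.5 ± 0.328 against 49.6 ± 4.33 FPKM), Rps2, Rpl21 and Rpl35a also belong to the sharing genes.

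**Figure D3:**
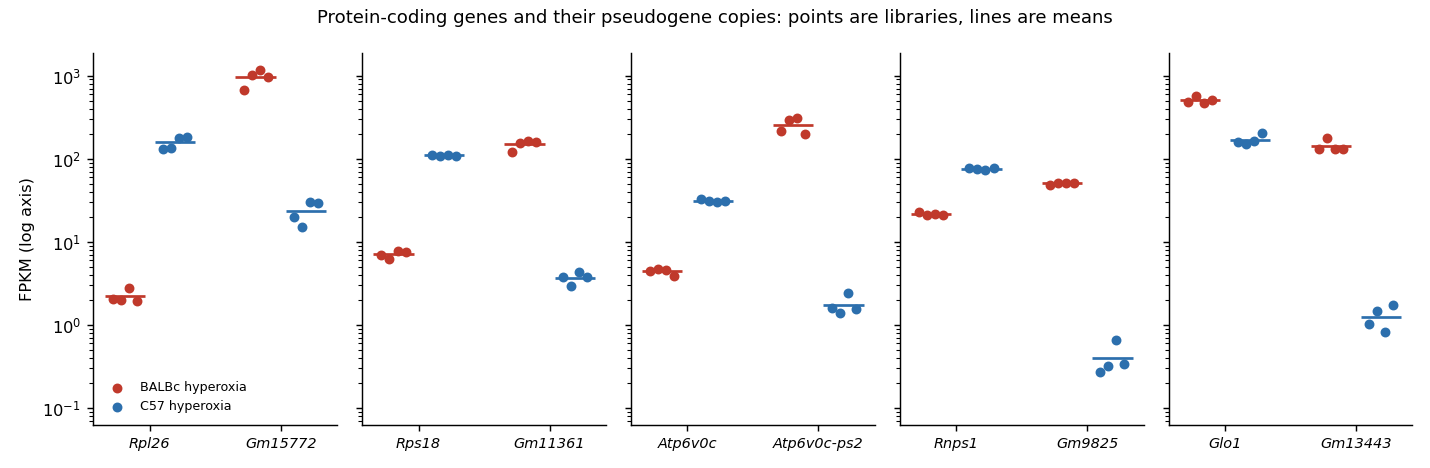
FPKM on a log axis of 5 protein-coding genes and a pseudogene copy of each in the BALBc (red) and C57 (blue) hyperoxia libraries; points are libraries and lines are group means. For Rpl26, Rps18, Atp6v0c and Rnps1 the red points lie below the blue ones for the gene and above them for the copy, while for Glo1 they lie above for both.

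Genes with known alleles in C57 or BALBc mice were read as a check of the labels. Glo1 (chromosome 17, 30584936 to 30626871), the glyoxalase that detoxifies methylglyoxal and lies in a segment duplicated in several strains, read 482, 575, 467 and 506 FPKM in BALBc and 160, 149, 165 and 201 FPKM in C57 (log2 difference 1.59, SE 0.14, limma adjusted p = 1.05e-06). Its copy Gm13443 was 143 ± 23 against 1.26 ± 0.411 FPKM, and both together came to 5831 ± 530 against 2069 ± 262 RPM. Gabra2, a GABA-A receptor subunit with a low-expression allele in a C57 substrain, read 4.27, 7.63, 7.08 and 3.24 FPKM against 0.990, 1.10, 2.09 and 1.63 FPKM (1.6, SE 0.24, adjusted p = 0.000286). Both genes were higher in every BALBc library, as in normoxia. Of 6 tested genes in the list 4 were higher, beside 11.8% of all tested genes, and 0 lower. The other higher ones were Crb1 (0.65) and Ahr (0.45), for which no expected direction is given here. Tyr read 0.744, 4.23, 3.53 and 2.16 FPKM in BALBc and 1.23, 2.14, 1.25 and 1.47 FPKM in C57 (adjusted p = 0.378), with its high values in BALBc replicates 2 and 3; the albino mutation changes its protein, not its amount. Nnt, part of which is deleted in a C57 substrain, was below the filter on low values in both strains, and a second gene model of that symbol overlaps it.

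Some endothelial genes were lower in BALBc hyperoxia and the rest were not called. Of 32 endothelial identity genes 21 passed the filter on low values, and 9 of these were lower, 0 higher and 12 not called, beside 10.8% lower among all tested genes. The list median was -0.54, against 0.0079 for all genes. Cldn5 (ENSMUSG00000041378, chromosome 16, 18776847 to 18778262), the main claudin of the blood-retina barrier, read 2.89, 7.43, 6.6 and 2.53 FPKM in BALBc and 12.6, 11.6, 14.4 and 12.4 FPKM in C57 (log2 difference -1.43, SE 0.26, limma adjusted p = 0.00133). Sox18, an endothelial transcription factor, was 0.515 ± 0.165 against 1.76 ± 0.554 FPKM (-1.14, adjusted p = 0.00188), and Eng, a co-receptor of TGF-beta signalling, 0.925 ± 0.381 against 2.09 ± 0.299 FPKM (-0.90, adjusted p = 0.0033). In all 3 genes the highest BALBc library was below the lowest C57 library. In bulk tissue, fewer cells of a type and less RNA per cell cannot be told apart.

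The mean level of the endothelial list, as mean log2(FPKM + 0.5), was 1.23, 1.42, 1.39 and 0.94 in BALBc replicates 1 to 4 and 1.76, 1.78, 1.70 and 1.58 in C57. The strains were also apart in normoxia, at 1.65 to 1.88 and 1.97 to 2.20, where 3 members were lower and the median was -0.36. Cldn5 in normoxia was 12.6 ± 1.70 against 22.7 ± 5.22 FPKM (-0.81, adjusted p = 0.0625; difference of contrasts -0.62, adjusted p = 0.61). The lowest level in hyperoxia was that of BALBc replicate 4, the library without Xist, and without that library 7 members of the endothelial list were lower and 1 higher. Of the 8 tested pericyte and smooth muscle genes 1 was lower, Notch3, the receptor of mural cells (-0.67, adjusted p = 0.0149), whose call was lost without C57 replicate 1 (adjusted p = 0.0507) or 2 (adjusted p = 0.0505).

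Genes of vessel growth followed in part. Of 28 tested angiogenic factors and receptors 10 were lower and 1, Vash1, higher (median -0.24). Pdgfb, the endothelial ligand that recruits pericytes, was 0.374 ± 0.154 FPKM in BALBc and 1.51 ± 0.442 FPKM in C57 (log2 difference -1.19, SE 0.19, adjusted p = 0.000631). Igfbp3, a binding protein of insulin-like growth factors, read 0.522, 0.908, 0.405 and 0.336 FPKM against 5.25, 3.82, 1.69 and 1.37 FPKM (-1.64, adjusted p = 0.00147), with the C57 values spread by library. Cxcr4, the chemokine receptor of tip cells, was 1.31 ± 0.331 against 3.34 ± 0.769 FPKM (-1.08, adjusted p = 0.00575) and was also lower in normoxia (-1.65). Vegfa, the growth factor itself, read 29.8, 9.44, 14.1 and 21.7 FPKM in BALBc and 27.1, 33.7, 40.8 and 28.5 FPKM in C57. The groups overlapped, and its call (-0.88, adjusted p = 0.0369) was lost without BALBc replicate 2 or 3 or C57 replicate 1, 2 or 3 (adjusted p between 0.051 and 0.114).

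Matrix genes were lower where they were called. Of 13 tested vascular basement membrane genes 8 were lower and 0 higher, with a median of -0.76 (0.09 in normoxia). Fn1, fibronectin, read 3.75, 2.57, 2.45 and 1.71 FPKM against 7.18, 6.23, 5.61 and 4.03 FPKM (log2 difference -1.02, SE 0.20, adjusted p = 0.00216). Lama5, a laminin chain, was 1.31 ± 0.188 against 3.01 ± 0.836 FPKM (-0.93, adjusted p = 0.00579), and Col4a2, a type IV collagen chain, 6.97 ± 1.40 against 12.4 ± 4.10 FPKM (-0.76, adjusted p = 0.0106). The mean level of the list was 2.27, 2.65, 2.48 and 2.03 in BALBc and 2.94, 3.10, 3.12 and 2.63 in C57, so that BALBc replicate 2 lay above C57 replicate 4. Of 14 fibroblast and interstitial matrix genes 8 passed the filter on low values. Of the 8 tested genes 5 were lower and 0 higher (median -0.95). Besides Fbln1 these included Col6a1, a type VI collagen chain (6.27 ± 3.94 against 14.9 ± 1.94 FPKM, adjusted p = 0.00714), and Mgp, the matrix Gla protein that inhibits calcification (1.18 ± 0.666 against 3.87 ± 2.08 FPKM, adjusted p = 0.0142). The call of Mgp was lost without C57 replicate 1 (adjusted p = 0.051). The fibroblast markers Col1a1, Col1a2, Dcn and Lum were low and overlapped between the strains. Col1a1 read 0.0729 to 0.721 FPKM in BALBc and 0.161 to 0.537 FPKM in C57. Col1a2 read 0.669 to 1.21 FPKM in BALBc and 0.793 to 1.10 FPKM in C57. With the sex covariate 3 basement membrane and 3 fibroblast genes were lower.

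Targets of the hypoxia-inducible factors and of glycolysis differed in a minority of genes. Of 26 tested HIF subunits and targets 7 were lower and 1 higher (median -0.26). Ak4, a mitochondrial adenylate kinase, read 1.98, 1.41, 1.69 and 1.41 FPKM in BALBc and 3.77, 4.24, 3.98 and 2.55 FPKM in C57 (log2 difference -0.95, SE 0.14, limma adjusted p = 0.000249). Slc16a3, a lactate exporter, was 2.17 ± 0.502 against 3.95 ± 0.405 FPKM (-0.75, adjusted p = 0.00358), and Egln3, an oxygen-sensing prolyl hydroxylase, 0.571 ± 0.317 against 1.34 ± 0.360 FPKM (-0.81, adjusted p = 0.0154). The groups of Ak4 and Slc16a3 did not overlap, while Egln3 reached 0.921 FPKM in BALBc and went down to 0.876 FPKM in C57. Without C57 replicates 3 and 4 there were 4 lower members, and with the sex covariate 2. Of 29 glycolysis and lactate genes 7 were lower and 0 higher (median -0.10), a called share of 24.1% beside 22.6% of all tested genes. Pdk1 and Pdk2, kinases that hold pyruvate back from the mitochondria, were 1.81 ± 0.579 against 4.91 ± 0.560 FPKM (-1.26, adjusted p = 2.59e-05) and 16.4 ± 1.10 against 26.4 ± 3.03 FPKM (-0.66, adjusted p = 0.00258). Pdk1 was also lower in normoxia (-1.04, adjusted p = 0.000215). With TPM scaling 13 glycolysis genes were lower and 1 higher.

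Subunits of oxidative phosphorylation went in the other direction. Of 77 tested nuclear subunits 27 were higher and 1 lower, beside 11.8% and 10.8% of all tested genes, and 68 had a log2 difference above 0 (median 0.35). In normoxia 0 of the 77 were higher and 3 lower, with a median of 0.02. The normoxia reference was itself uneven: the list level was 5.61, 5.4, 6.08 and 5.81 in C57 replicates 1 to 4, in step with Gnat1, and 5.69 to 5.82 in BALBc, and the part of that split was not tested. Cox6c, a subunit of cytochrome c oxidase, read 98.8, 137, 145 and 142 FPKM in BALBc and 73.3, 72.6, 77.7 and 81.6 FPKM in C57 (log2 difference 0.76, SE 0.15, limma adjusted p = 0.00313). Ndufb2, a complex I subunit, was 7.31 ± 0.589 against 4.51 ± 1.02 FPKM (0.66, adjusted p = 0.00218). The overlap of Ndufb2 with genes on the opposite strand leaves part of its reads uncertain.

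The BALBc libraries were uneven in these subunits. The list level was 5.92, 6.37, 6.40 and 6.20 in BALBc replicates 1 to 4 and 5.82, 5.77, 5.96 and 6.02 in C57. BALBc replicates 2, 3 and 4 thus lay above every C57 library, and replicate 1 lay within the range of C57. Without BALBc replicates 2 and 3 the count was 2 higher and 2 lower (median 0.21), and with the sex covariate 9 higher and 1 lower. With TPM scaling it was 24 higher and 6 lower (median 0.18). The 13 genes of the mitochondrial genome had a list level of 7.49, 8.70, 8.87 and 7.95 in BALBc and 8.11, 7.98, 8.62 and 8.13 in C57, and the only one called was mt-Nd3, described above. Their median, 0.36, was -0.01 after quantile normalization and -0.17 without BALBc replicates 2 and 3.

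Of 82 tested cytosolic ribosomal protein genes 17 were higher and 9 lower (median 0.38). Without BALBc replicates 2 and 3 the count was 2 higher and 9 lower (median 0.22), and with the sex covariate 8 higher and 9 lower. Rps23 was 393 ± 96.1 FPKM in BALBc and 148 ± 10.2 FPKM in C57 (log2 difference 1.37, adjusted p = 0.000175), and the 9 lower genes included the 6 among the largest differences, Rpl30 and Rplp0 (139 ± 21.5 against 266 ± 29.6 FPKM, -0.94). The copies of Rplp0 were at 168 against 2.30 RPM, and gene and copies summed to 383 ± 37.2 against 450 ± 48. Only 1 of the 82 genes has no 50-base word in another gene, so single ribosomal protein genes cannot be read as changes of that gene.

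In the tricarboxylic acid cycle and its feeding reactions 3 of 22 genes were higher and 4 lower (median -0.04). Suclg1, a subunit of succinyl-CoA ligase, was 25 ± 2.37 against 18.8 ± 1.29 FPKM (log2 difference 0.40, adjusted p = 0.00999). Glul, the glutamine synthetase of Müller glia, read 177, 158, 236 and 148 FPKM in BALBc and 396, 419, 242 and 215 FPKM in C57 (-0.79, adjusted p = 0.0142). Its high values were in C57 replicates 1 and 2, the groups overlapped, and the call was lost without C57 replicate 1 (adjusted p = 0.0512). In normoxia Glul was 303 ± 11.9 against 229 ± 33.2 FPKM (0.41, adjusted p = 0.251), and the difference of contrasts, -1.20, had an adjusted p of 0.25.

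Serine and one-carbon enzymes went both ways, with 4 of 17 higher and 3 lower. Shmt2, the mitochondrial serine hydroxymethyltransferase that feeds one-carbon units into folate metabolism, read 47.2, 28.7, 32.2 and 47.2 FPKM in BALBc and 11.7, 11.4, 16.9 and 20.8 FPKM in C57 (log2 difference 1.33, SE 0.19, limma adjusted p = 0.000149). Psph, the last enzyme of serine synthesis, was 9.56 ± 0.827 against 6.0 ± 0.360 FPKM (0.63, adjusted p = 0.000258). Slc1a4, a neutral amino acid transporter, was lower, at 2.89 ± 0.497 against 5.34 ± 0.286 FPKM (-0.79, adjusted p = 0.000332). The groups of all 3 were apart, and all 3 were called in the same direction in normoxia (1.09, 0.37 and -0.50).

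Of 26 antioxidant and NRF2 target genes 5 were higher and 5 lower. The count was 1 higher and 5 lower without BALBc replicates 2 and 3, and 3 higher and 6 lower with TPM scaling. Besides Glo1, the higher ones in the main test were the peroxiredoxins and glutathione peroxidases Prdx1, Prdx3, Gpx1 and Gpx4. The lower ones included Gstm1, a glutathione transferase with close paralogs (4.37 ± 1.46 against 9.94 ± 1.48 FPKM, log2 difference -1.14, adjusted p = 0.00122), and Txnrd1, cytosolic thioredoxin reductase, at 5.55, 5.01, 4.87 and 4.13 FPKM in BALBc and 8.54, 8.75, 8.96 and 10.2 FPKM in C57 (-0.84, SE 0.15, adjusted p = 0.00138). Gclc and Gclm, which encode both subunits of the enzyme that limits glutathione synthesis, were among the 5 lower genes. Txnrd1 was lower in normoxia as well (-0.75), while Gstm1 was 4.49 ± 1.34 against 5.41 ± 0.300 FPKM there (adjusted p = 0.45).

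Lipid genes were called in both directions. For fatty acid oxidation, fatty acid synthesis, triglyceride handling and cholesterol metabolism the called share was below the 22.6% of all tested genes. Without BALBc replicates 2 and 3 there were 0 higher and 2 lower genes of fatty acid oxidation, 1 higher and 0 lower of synthesis, 1 higher and 5 lower of binding and uptake, and 0 higher and 2 lower of cholesterol metabolism. In fatty acid oxidation 2 of 32 genes were higher and 4 lower, the latter led by Ppara; Acads, the short-chain acyl-CoA dehydrogenase, was 1.56 ± 0.551 against 3.03 ± 0.605 FPKM (log2 difference -0.80, adjusted p = 0.00518). Among 8 enzymes of ketone metabolism 2 were called, both higher, and 0 without BALBc replicates 2 and 3; they were Acat1, which makes and splits acetoacetyl-CoA, at 39.7, 59.6, 56.6 and 56.8 FPKM against 28.9, 28.5, 40.1 and 38.4 FPKM (0.64, adjusted p = 0.0109), and Oxct1, the enzyme that activates acetoacetate, at 95.2 ± 8.53 against 61.2 ± 23.4 FPKM (0.71, adjusted p = 0.0185). The Acat1 groups overlapped at BALBc replicate 1, and the Oxct1 call was lost without C57 replicate 1 or 2 (adjusted p = 0.0624 and 0.0621), the 2 low C57 libraries at 40.4 and 41.5 FPKM.

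Genes of triglyceride handling were called in 3 of 14 cases, beside 22.6% of all tested genes. Pnpla2, the lipase that starts triglyceride breakdown, read 3.20, 2.65, 3.02 and 3.61 FPKM in BALBc and 6.16, 6.65, 5.31 and 4.68 FPKM in C57 (log2 difference -0.77, SE 0.11, limma adjusted p = 0.000139). Dgat2, which makes triglyceride, was also lower, at 2.90 ± 0.606 against 6.06 ± 1.48 FPKM (-0.94, adjusted p = 0.000807). Hilpda, a lipid droplet protein that inhibits the lipase, was higher, at 14.2 ± 2.22 against 7.62 ± 1.53 FPKM (0.86, adjusted p = 0.00158). None of the 3 had overlapping groups. In normoxia Pnpla2 was 3.50 ± 0.161 against 3.52 ± 0.178 FPKM, with a difference of contrasts of -0.76 (adjusted p = 0.24).

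Of 22 genes of fatty acid synthesis 3 were higher and 1 lower, among them Acacb, an acetyl-CoA carboxylase (1.23 ± 0.282 against 0.490 ± 0.0368 FPKM, log2 difference 0.79, adjusted p = 0.00313). Of 12 genes of fatty acid binding and uptake 2 were higher and 5 lower. Lpl, lipoprotein lipase, was 1.29 ± 0.523 against 3.26 ± 0.189 FPKM (-1.12, adjusted p = 0.000378) and was lower in normoxia too (-1.05). Fabp12 was 42.2, 82.7, 89.6 and 67.4 FPKM against 21.4, 22.3, 36.3 and 38.2 FPKM (1.23, adjusted p = 0.00513), and Fabp7, the brain fatty acid binding protein, 34.7 ± 12.4 against 17.8 ± 7.13 FPKM (0.98, adjusted p = 0.0142). In cholesterol metabolism 2 of 26 genes were higher and 3 lower, with Cyp46a1, the neuronal cholesterol hydroxylase, at 4.76 ± 0.881 against 7.97 ± 1.05 FPKM (-0.69, adjusted p = 0.00122). Sphingolipid and phospholipid enzymes were called in 7 of 30 cases, 3 higher and 4 lower, a share near the 22.6% of all tested genes, and in 0 cases without BALBc replicates 2 and 3. They included Cers5, a ceramide synthase, at 11.6 ± 0.808 against 15.7 ± 1.05 FPKM (-0.43, adjusted p = 0.00975).

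**Figure D4:**
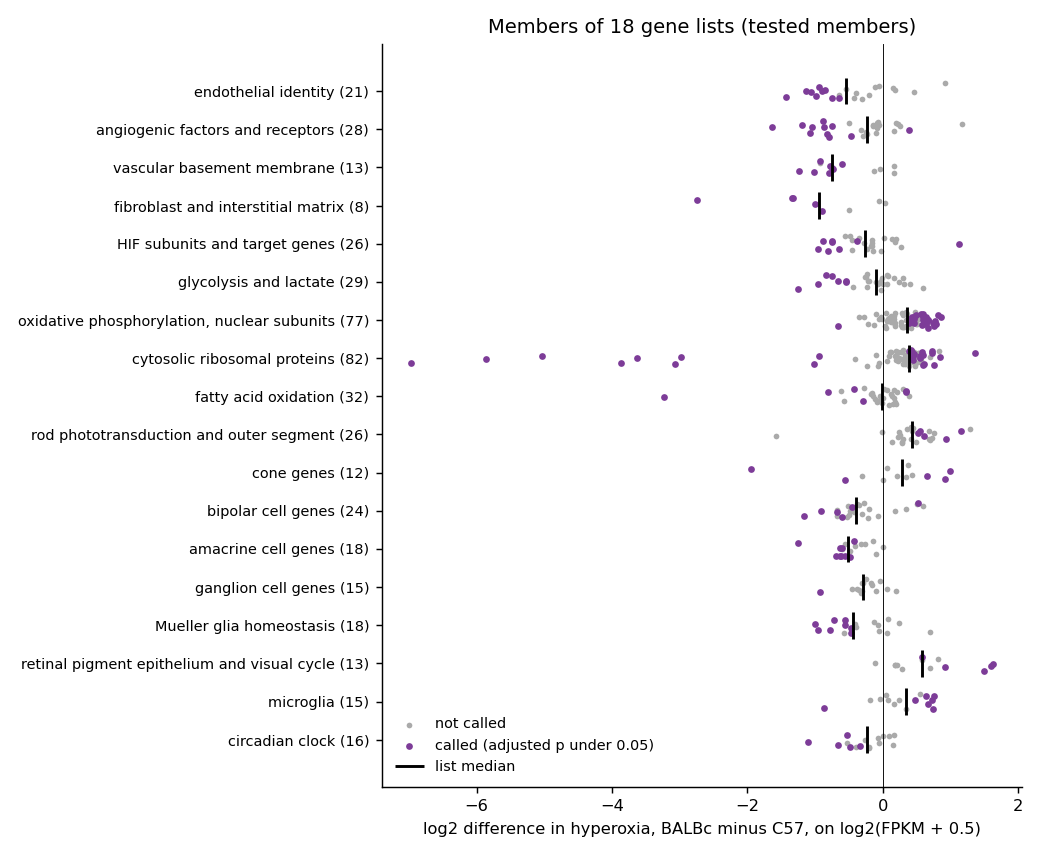
Log2 difference in hyperoxia (BALBc minus C57, on log2(FPKM + 0.5)) of each tested member of 18 gene lists, with the number tested in brackets; purple points are called, grey points are not, and black bars are list medians. Medians run from -0.95 for fibroblast and interstitial matrix genes to 0.58 for pigment epithelium genes, and the ribosomal list holds the points of lowest value.

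Rod genes were higher in part, and unevenly among the BALBc libraries. Of 26 rod genes 5 were higher and 0 lower (median 0.43). Gucy2f, a guanylate cyclase of photoreceptors, read 19.1, 40.5, 36.2 and 33.2 FPKM in BALBc and 14.6, 17.3, 16 and 16.2 FPKM in C57 (log2 difference 0.94, SE 0.22, limma adjusted p = 0.00686). Grk1, a kinase of photoreceptors, was 144 ± 21.8 against 93.7 ± 7.84 FPKM (0.61, adjusted p = 0.0163), and it differed as much in normoxia (0.61). The list level was 7.83, 8.90, 8.91 and 8.45 in BALBc and between 7.99 and 8.19 in C57. BALBc replicate 1 thus lay below every C57 library and the other BALBc libraries above. In normoxia the level was 7.64, 7.50, 8.82 and 8.53 in C57 and 8.55 to 8.78 in BALBc. Without BALBc replicates 2 and 3, 0 rod genes were higher and 1 lower. Gnat1 had an adjusted p of 0.621.

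Cone genes went both ways. Pde6c (chromosome 19, 38132781 to 38183958), the catalytic subunit of the cone phosphodiesterase, read 9.57, 4.52, 5.77 and 7.59 FPKM in BALBc and 22, 23.4, 27.8 and 36.3 FPKM in C57 (log2 difference -1.94, SE 0.24, limma adjusted p = 4.11e-05). In normoxia it was 9.13 ± 1.54 against 42.9 ± 13.6 FPKM (-2.13). Opn1sw, the short-wavelength opsin, went the other way, at 131, 152, 169 and 118 FPKM against 96.4, 109, 73.5 and 83.3 FPKM (0.65, adjusted p = 0.00648), and so did Pde6h, the inhibitory subunit of the same phosphodiesterase (27.2 ± 8.39 against 13.0 ± 1.76 FPKM, 0.99, adjusted p = 0.00789). In all, 3 of 12 cone genes were higher and 2 lower. Without BALBc replicates 2 and 3, 0 were higher and 2 lower.

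Amacrine cell genes, which mark inhibitory neurons of the inner retina, were lower where they were called. Of 18 tested genes 9 were lower and 0 higher (median -0.52, and -0.21 in normoxia). Slc17a8, the vesicular glutamate transporter of a class of amacrine cells, read 0.499, 0.591, 0.501 and 0.406 FPKM in BALBc and 1.93, 2.13, 2.16 and 1.38 FPKM in C57 (log2 difference -1.25, SE 0.15, limma adjusted p = 4.54e-05). Slc6a9, the glycine transporter of glycinergic cells, was 10.2 ± 0.510 against 14.5 ± 0.593 FPKM (-0.48, adjusted p = 0.00241). Slc32a1, which loads GABA and glycine into vesicles, read 21.8, 21.8, 21.4 and 13.1 FPKM against 26.9, 29.5, 32.4 and 30.4 FPKM (-0.63, adjusted p = 0.00552). The amacrine level was 3.03, 3.03, 3.01 and 2.44 in BALBc and 3.40, 3.40, 3.46 and 3.21 in C57, with BALBc replicate 4 lowest. Without that library 6 members were lower, and with the sex covariate 4.

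Bipolar cell genes were called lower in 5 of 24 cases and higher in 1 (median -0.40). Lhx4, a transcription factor of cone bipolar cells, read 10.7, 2.01, 4.13 and 7.08 FPKM in BALBc and 12.5, 12.3, 11.1 and 12.7 FPKM in C57 (log2 difference -1.17, adjusted p = 0.0159). Rgs7, a G protein regulator of ON bipolar cells, was 4.03 ± 0.776 against 6.75 ± 1.22 FPKM (-0.68, adjusted p = 0.00466). The low values of Lhx4 were in BALBc replicates 2 and 3, and the list level, 4.46, 3.50, 3.92 and 4.16 in BALBc against 4.23 to 4.4 in C57, had the same order. Without those 2 libraries 1 bipolar gene was lower and 2 higher (median -0.08). Of 15 ganglion cell genes 1 was lower, Isl2, a homeobox gene of a ganglion cell subset (3.53 ± 1.43 against 6.87 ± 1.12 FPKM, -0.93, adjusted p = 0.0111), and 9 were lower without BALBc replicates 2 and 3. Of 5 horizontal cell genes 1 was lower, the tropomyosin gene Tpm3 (5.08 ± 0.949 against 17.2 ± 0.893 FPKM, -1.68, adjusted p = 1.48e-07), of whose words 23% occur in other genes.

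Müller glia genes were lower in 8 of 18 cases and higher in 0 (median -0.44, and -0.03 in normoxia). Dkk3, a secreted glycoprotein of the dickkopf family, read 93.8, 80.1, 96.3 and 66.8 FPKM in BALBc and 197, 204, 139 and 139 FPKM in C57 (log2 difference -1.0, SE 0.15, limma adjusted p = 0.000365). Vim, the intermediate filament vimentin, was 21.8, 13.3, 15.6 and 15.1 FPKM against 28.4, 28.0, 40 and 32.4 FPKM (-0.95, adjusted p = 0.000646), and Prdx6, a peroxiredoxin, 10.4 ± 2.27 against 15.4 ± 0.739 FPKM (-0.56, adjusted p = 0.00536). The groups of all 3 were apart. In normoxia Dkk3 was 109 ± 11.6 against 114 ± 12.9 FPKM (-0.06; difference of contrasts -0.94, adjusted p = 0.25). The list level was 4.72, 4.41, 4.72 and 4.46 in BALBc and 4.82 to 5.01 in C57. Of 11 genes of gliosis and astrocytes 1 was higher, Serpina3n (1.75 ± 0.851 against 0.493 ± 0.329 FPKM, 1.16, adjusted p = 0.00831), and 3 lower, among them Lcn2, a lipocalin of reactive glia (1.23 ± 0.407 against 2.70 ± 0.517 FPKM, -0.90, adjusted p = 0.00811).

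Genes of the pigment epithelium, the layer beneath the photoreceptors that can stay with a dissected retina, were higher in BALBc where they were called. Of 13 tested genes 5 were higher and 0 lower (median 0.58), and of 11 melanin pathway genes 3 were higher and 0 lower (median 0.66). Rdh5, a retinol dehydrogenase of the visual cycle, read 4.98, 18, 23.7 and 10.5 FPKM in BALBc and 3.02, 5.35, 3.33 and 4.98 FPKM in C57 (log2 difference 1.49, adjusted p = 0.0137). Tyrp1, an enzyme of the melanosome, read 7.63, 33.4, 32.4 and 16 FPKM against 4.45, 7.54, 5.30 and 7.53 FPKM (1.58, adjusted p = 0.0236). The values were highest in BALBc replicates 2 and 3 throughout, with list levels of 3.19, 4.39, 4.60 and 3.83 in BALBc against 3.11 to 3.67 in C57. Without those 2 libraries 0 genes of either list were called, and the Tyrp1 call was also lost without BALBc replicate 2 or 3 or C57 replicate 1 or 3 (adjusted p between 0.0516 and 0.0748). Both lists had 0 unadjusted and adjusted calls on the lower side. The pigment epithelium marker Best1, under 1 FPKM in every hyperoxia library, went the other way. It read 0 to 0.0499 FPKM in BALBc and 0.325 to 0.566 FPKM in C57.

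**Figure D5:**
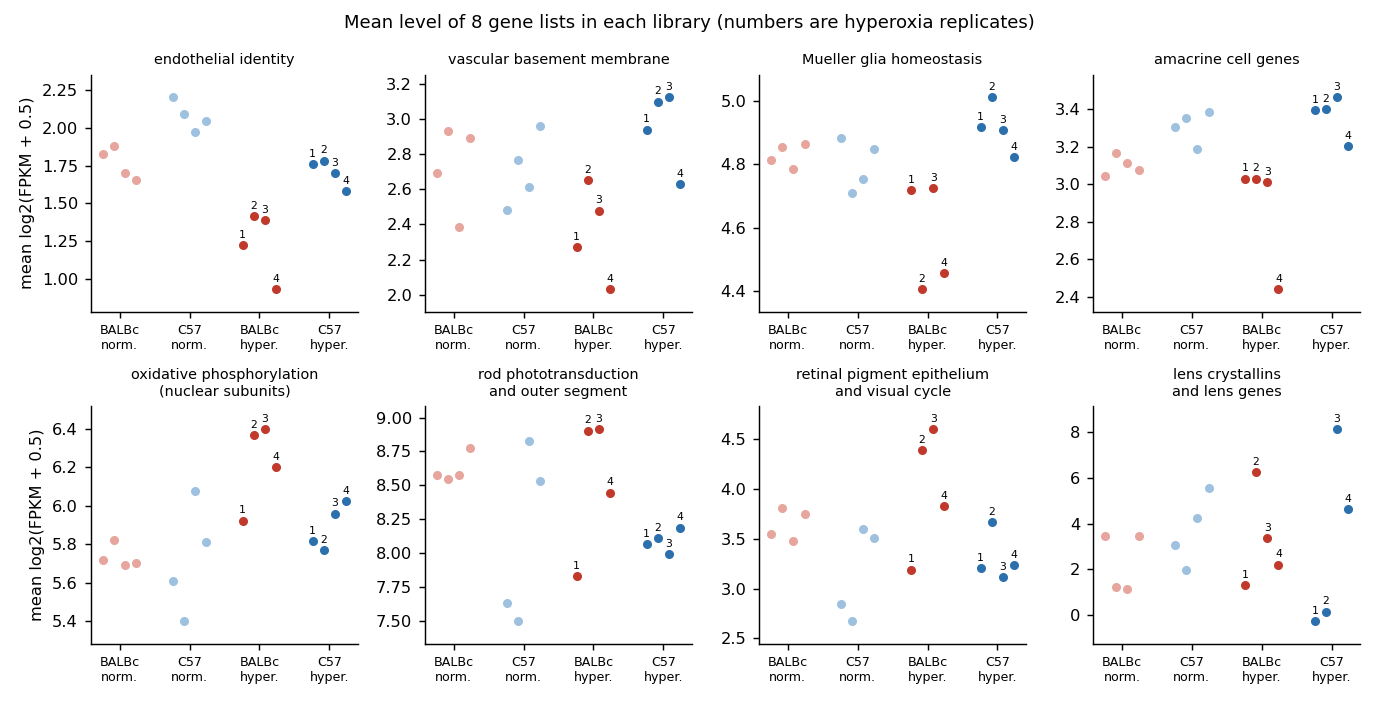
Mean log2(FPKM + 0.5) of 8 gene lists in each of the 16 libraries, by strain and oxygen condition, with numbers giving the hyperoxia replicate; pale points are normoxia. The endothelial and amacrine levels of BALBc hyperoxia lie below every C57 hyperoxia library, whereas the rod and pigment epithelium levels of BALBc replicates 2 and 3 lie above, and the lens level ranges from -0.24 to 8.12 within C57 hyperoxia.

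Immune genes were called in both directions. Of 15 tested microglia genes 6 were higher and 1 lower (median 0.34). P2ry12, a purine receptor of resident microglia, was 3.50 ± 0.299 against 2.01 ± 0.748 FPKM (0.72, adjusted p = 0.0137), and Ctss, cathepsin S, 18.3 ± 3.75 against 11.5 ± 1.63 FPKM (0.64, adjusted p = 0.00964). With TPM scaling 0 microglia genes were called, and 0 without BALBc replicates 2 and 3. In the complement list 2 of 7 tested genes were higher; C1qa, the first component's subunit made by microglia, was 14.5 ± 3.70 against 8.44 ± 2.16 FPKM (0.74, adjusted p = 0.018), a call lost without C57 replicate 1 or 2 (adjusted p = 0.0539 and 0.0601).

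Of 34 antigen presentation genes 10 were tested and 4 of them were lower. H2-K1, a classical class I gene, was 1.52 ± 0.390 FPKM in BALBc and 3.90 ± 1.05 FPKM in C57 (log2 difference -1.11, adjusted p = 0.000742), H2-D1, the other classical gene of the list, 4.44, 6.82, 7.81 and 2.97 FPKM against 15.2, 12.6, 13.0 and 12.7 FPKM (-1.29, adjusted p = 0.00089), and H2-T24 0.935 ± 0.316 against 2.84 ± 0.423 FPKM (-1.24, adjusted p = 0.00118). The strains carry different haplotypes at this locus, and both were aligned to the same reference, so reads of the other haplotype may be lost; this was not tested. Of 11 interferon-stimulated genes 0 were called in limma, although the unadjusted p was under 0.05 for 1 higher and 2 lower genes, and limma voom called 2 lower. Stat2 read 5.97 to 6.48 FPKM in BALBc and 5.06 to 7.23 FPKM in C57.

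Among regulatory programmes, 5 of 16 circadian clock genes were lower and 0 higher (median -0.23, and 0.16 in normoxia). Tef, a clock output factor, read 27.4, 23.7, 25.5 and 26.2 FPKM in BALBc and 38.5, 39.2, 32.2 and 35.6 FPKM in C57 (log2 difference -0.49, SE 0.08, limma adjusted p = 0.000649). Ciart, a repressor of the clock, was 1.71 ± 0.612 against 4.17 ± 0.898 FPKM (-1.10, adjusted p = 0.00194). The clock level was 4.02, 4.01, 3.69 and 3.69 in C57 and 3.52 to 3.61 in BALBc, so that most of the gap lay in C57 replicates 1 and 2. The time of day at collection is not given in the labels, and its part was not tested.

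Of 14 tested p53 targets 4 were lower and 1 higher. Cdkn1a, the cell cycle inhibitor p21, read 1.47, 2.14, 1.83 and 1.23 FPKM in BALBc and 5.76, 5.79, 3.87 and 3.11 FPKM in C57 (log2 difference -1.22, SE 0.19, adjusted p = 0.000503), and it was lower in normoxia too (-0.91). Plk2, a polo-like kinase, was 4.21 ± 1.02 against 7.84 ± 0.809 FPKM (-0.85, adjusted p = 0.000463), while the sestrin gene Sesn2, induced by several stresses, was 5.45 ± 0.741 against 9.07 ± 1.57 FPKM (-0.68, adjusted p = 0.00107). Of the 18 integrated stress response genes 2 were higher, including the transcription factor Atf5 (13.0 ± 2.73 against 7.91 ± 1.89 FPKM, 0.69, adjusted p = 0.00851), and 2 lower. That share is near the 22.6% of all tested genes. Immediate early genes were called in 3 of 11 cases, 2 higher and 1 lower, with Ier2 at 17.3 ± 1.94 against 12.5 ± 0.601 FPKM (0.44, adjusted p = 0.0064). In the cell cycle list 1 of 14 genes was lower, Mcm6, a subunit of the replication helicase, at 0.475 ± 0.0911 against 1.70 ± 0.0890 FPKM (-1.18, adjusted p = 1.85e-05) and lower in normoxia as well (-1.02). The 1 higher gene was Pcna, the sliding clamp, whose call was lost without BALBc replicate 2, 3 or 4 (adjusted p between 0.0523 and 0.0615).

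The lens and erythroid lists gave no calls. Of 20 lens genes 0 were called, with 0 at an unadjusted p under 0.05 and 0 with limma voom, but 8 were higher without C57 replicates 3 and 4. Crygb, a lens crystallin, read 7.13, 384, 42.5 and 12.4 FPKM in BALBc and 0, 0.935, 1200 and 107 FPKM in C57. The spread within each strain exceeded any distance between them. Of 5 erythroid genes 0 were called, with 1 lower at an unadjusted p under 0.05 and 1 lower with limma voom, and Hbb-bs, a beta globin, read 11.7 to 47.9 FPKM in BALBc and 14.8 to 42.8 FPKM in C57. Of 5 tested sex-linked markers 0 were called, with 0 at an unadjusted p under 0.05 and 0 with limma voom.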

How the data were processed

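RNA from 16 mouse retina samples was sequenced. Per the submitters' processing notes, the tools were HISAT2 2.0.5 and featureCounts 1.5.0-p3, with the GRCm38 (mm10) genome. The annotation release, the strand setting and the tool that made the FPKM values are not given in the sources used here. The authors deposited FPKM values for 54532 genes in 16 columns, of which 54495 were matched to GENCODE mouse release 21 for names, lengths and coordinates, and 27 symbols stored as calendar dates were set back to gene names. With exon lengths from that release, 97.1% to 97.5% of values up to 1000 reads were whole reads within 0.01, so reads were recovered and used for depth and for limma voom. Both strains were aligned to one reference, derived from a C57 strain.

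The main test was limma 3.58.1 (R 4.3.3, trend) on log2(FPKM + 0.5), with 4 groups of 4 libraries sharing one estimate of the spread, genes at 1 FPKM or more in 4 or more libraries, and Benjamini-Hochberg adjusted p under 0.05. Every adjusted p in the text is from limma and is two-sided. Tests ran over all genes, and the procedure was tested on simulated data. Words of 50 bases shared between transcripts of different genes marked near-identical copies (Python 3.11.15, pandas 2.3.3). Named genes were protein-coding genes averaging 2 FPKM or more over the 8 hyperoxia libraries, called and with no overlap between strains, the 12 with the largest difference in each direction; from each of 43 lists up to 3 called members with the smallest adjusted p, or the 2 most abundant where none was called; and 10 check genes; 4 of the named genes are not reported here. The gene copies and their families (Rpl30, Rplp0, Rnps1, Atp6v0c, Eif3j1, Hmga1) and the list members Ahr, Gclc, Gclm, Gpx1, Gpx4, Prdx1, Prdx3, Rps23 and Vash1 were chosen after their values were seen. The members and lists were chosen with earlier results of these data known. The alternatives without C57 replicates 3 and 4, over genes with no shared word, and with lens and sex covariates together were chosen after seeing the data.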

Additional observations from a re-analysis of the deposited data

Results flagged for a closer look

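In 18 of 274 groups of 4 hyperoxia libraries checked (6.57%), 1 library lay far from the other 3 by Dixon's criterion, which chance alone meets in about 1 of 20 groups. In FPKM, BALBc replicate 1 was low for Armh4 (5.02) and Acat1 (39.7) and high for Abcd3 (10.7) and Sgpl1 (4.23). BALBc replicate 2 was high for H2-T24 (1.4), for Ifitm3 (4.43) and for the crystallins Crygb (384) and Cryaa (291). BALBc replicate 3 was high for Rpl26 (2.8). BALBc replicate 4 was high for Fabp7 (53.4), low for Slc32a1 (13.1), and high for the Y-linked genes Eif2s3y (27.2) and Ddx3y (20.5). Among the C57 libraries, replicate 1 was high for H2-D1 (15.2), replicate 2 for Eif3j2 (1.65), and replicate 3 for Idi1 (5.17), Crygb (1200) and Cryaa (1220).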

How the results depend on the processing

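Of 124 tested named genes given here 121 were called, 72 of these stayed past the threshold in every one of 28 settings that gave a value, and 0 called genes reversed. The count of genes called in hyperoxia, 3380, became 6800 with limma array weights, 2003 with only the 8 hyperoxia libraries, 2102 with a sex covariate, 2066 without BALBc replicates 2 and 3, and 1845 over genes with no shared word, where fewer genes were tested. It was 2326 to 4244 when 1 library was left out. In normoxia the 1358 calls became 3110 with array weights and 631 over genes with no shared word, and 1280 to 1502 with 1 library left out. The difference between the contrasts, 0 calls, gave 3473 with array weights, 591 without C57 replicates 3 and 4, 5 with a rod covariate, and 0 to 1 with 1 library left out, the 1 call coming without BALBc replicate 3. The cause of these changes was not tested. Of the uncalled genes, Tyr reversed to -0.08 with the rod covariate and -0.13 without BALBc replicates 2 and 3; Gnat1 to -0.09 with quantile normalization and -0.44 in each of the other 2 settings just named. With the replicate number as a block 3319 genes were called in hyperoxia, 1273 in normoxia and 0 for the difference. Same-numbered hyperoxia libraries of the strains deviated together with r of 0.15, -0.26, 0.1 and -0.02. Differently numbered ones had r of -0.20 to 0.28, so these values show no pairing by number across the strains. Pairing across oxygen within a strain was not tested. Depth limits readings below about 1 FPKM. Genes at 1 FPKM or more in fewer than 4 libraries were not tested in the main fit. Genes such as Ppara, Rec8 and Pttg1 were tested although every BALBc hyperoxia library lay below 1 FPKM.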
